A study of Danio rerio with 24 samples.

Results

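The comparison described here sets TCDD-exposed zebrafish embryos of the mutant line slincRosu3 against TCDD-exposed wild-type (WT) embryos. It takes in every library of those groups, 8 of the 24 samples in the series, 4 per line, and every gene in the deposited count table. TCDD (2,3,7,8-tetrachlorodibenzo-p-dioxin) was given at 1 ng/mL starting at 6 hours post fertilization, and whole embryos were taken at 48 hours for paired-end RNA sequencing. The slincRosu3 line carries a CRISPR-Cas9 mutation in slincR, a long intergenic noncoding RNA named for its neighbour sox9b. WT and slincRosu3 embryos kept without TCDD (controls, 4 libraries each) show what the line difference is in the absence of the dioxin. The authors' deposited comparison of the controls is labelled WT DMSO, so DMSO may have been their vehicle. The zygosity of the mutant embryos, whether 1 founder gave rise to the line, whether its background matches that of WT, and how many embryos or clutches made up a library are not given by the sources at hand. The p-values therefore measure the spread between libraries, which may be technical in part. The 8 samples of a further line, BigD, were not analysed here.

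TCDD binds the aryl hydrocarbon receptor (AHR), which in zebrafish acts mainly through Ahr2. The receptor enters the nucleus, pairs with Arnt and switches on genes of the CYP1 family of cytochrome P450 enzymes and its own repressors. In zebrafish embryos slincR is induced through this receptor, and the transcription factor gene sox9b, needed for cartilage, heart and fin development, is repressed by TCDD. The question put to these groups is which transcripts differ between dioxin-exposed embryos with and without the slincR mutation.

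Total counts ran from 17275522 to 20100736 per library over the 16 libraries of both lines and treatments. Markers of several tissues were present in the 8 TCDD libraries, which are labelled whole embryo. Genes of skeletal muscle summed to 83300 to 101000 CPM, of lens to 7060 to 10800 CPM and of neurons to 2940 to 3520 CPM. CPM, the unit of level used throughout, relate the counts of a gene to the TMM-scaled size of its library. The WT TCDD libraries were not alike. On the first principal component of the 8 TCDD libraries (35.6% of the variance), WT TCDD 3 and 4 scored 50.87 and 49.81, WT TCDD 1 and 2 at -9.38 and -23.79, and the 4 slincRosu3 TCDD libraries between -23.6 and -12.48. The second component (26.1%) separated the lines, with slincRosu3 TCDD at 12.68 to 32.21 and WT TCDD at -45.92 to 3.27. Calls of named genes that ended without WT TCDD 3 and 4, or without WT TCDD 1 and 2, are given below with the value in that fit. The targeted gene slincR itself was not analysed here, so the line labels could not be checked on it.

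The mutant and wild-type embryos exposed to TCDD differed in a small share of their transcripts. Of 20907 genes tested, 389 (1.86%) differed by edgeR's quasi-likelihood test at an adjusted p under 0.05, and these are referred to as called. In slincRosu3 185 were higher (0.885%) and 204 lower (0.976%), and 2999 genes had an unadjusted p under 0.05. Of the called genes, 89 were at least 2-fold higher and 108 at least 2-fold lower, and at 4-fold the numbers were 19 and 51. Another 73 differed by less than 1.5-fold. In 377 of the 389 the values of the 4 slincRosu3 libraries lay wholly outside those of the 4 WT libraries, against 10.3% of all genes tested. The median log2 fold change of all genes was -0.0119. Leaving out WT TCDD 3 and 4 gave 354 called genes, of which 198 were among the 389, and leaving out WT TCDD 1 and 2 gave 1056, of which 266 were among them. All 389 kept their direction in both fits. With single libraries left out the count was 175, 194, 260 and 180 without slincRosu3 TCDD 1 to 4, and 243, 298, 315 and 273 without WT TCDD 1 to 4. There were 112 genes, 56 higher and 56 lower, that passed in each of these 10 fits.

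**Figure D1:**
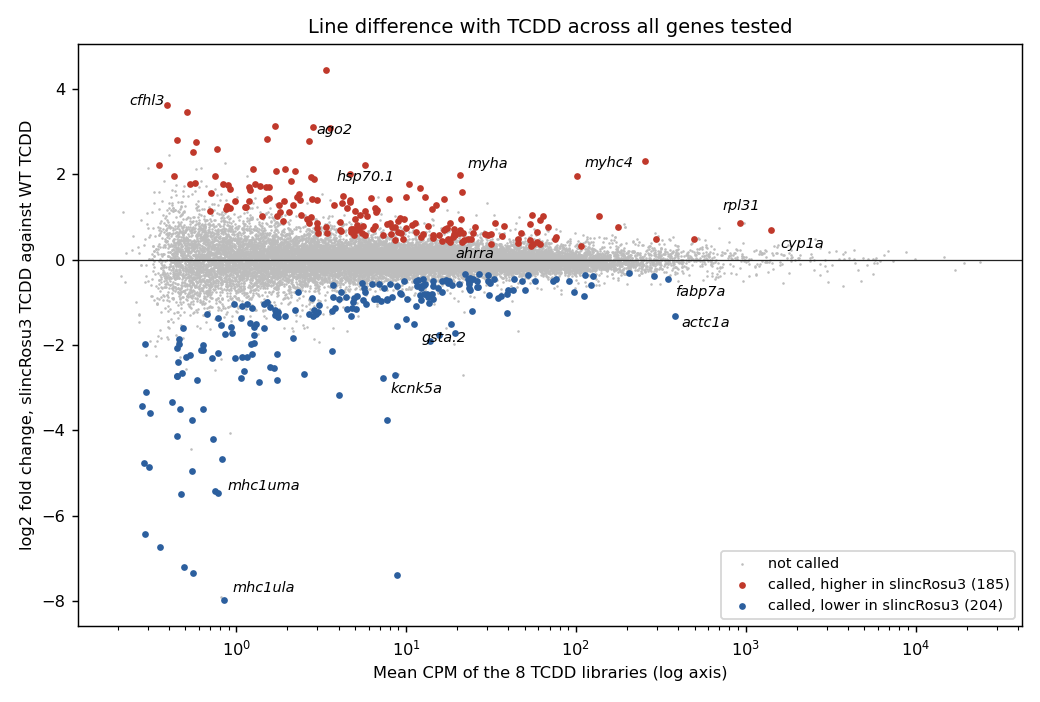
Each point is a gene, with its mean CPM over the 8 TCDD libraries on a log axis and its log2 fold change, slincRosu3 TCDD against WT TCDD, on the other. The 185 called genes that were higher and the 204 that were lower are coloured, and the strongest decreases lie at low levels, with mhc1ula at -7.96 and mhc1uma at -5.47.

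With all libraries, 3 well known AHR targets were higher in the mutant, and 2 of them by less than 1.5-fold. The level of cyp1a, the P450 gene used as the standard marker of AHR activation, was 1231, 1145, 856 and 1081 CPM in WT TCDD 1 to 4 and 1655, 1684, 1931 and 1755 CPM in slincRosu3 TCDD 1 to 4. Every mutant library was above every WT library. The log2 fold change was 0.70 (SE 0.142), a 1.63-fold difference with an adjusted p of 0.0151. The controls of both lines stood at 5.32 CPM or less. The AHR repressor gene ahrra, a feedback inhibitor, stood at 15.9, 14.6, 12.8 and 15.7 CPM in WT and 21.9, 18.1, 20.7 and 21.2 CPM in slincRosu3, again without overlap, and was 1.39-fold higher (adjusted p = 0.0313). Another CYP1 enzyme gene, cyp1c1, was at 467, 459, 366 and 361 CPM in WT and 592, 538, 611 and 584 CPM in slincRosu3, 1.41-fold higher (adjusted p = 0.0469). In these 3 genes the lowest WT values came from WT TCDD 3 or 4. Without WT TCDD 3 and 4 none of the 3 passed: the log2 fold change of cyp1a became 0.57 (adjusted p = 0.0873), that of ahrra 0.43 (0.126) and that of cyp1c1 0.34 (0.275). Leaving out 1 library left cyp1a called each time, ended the call of ahrra without slincRosu3 TCDD 1, 3 or 4 or WT TCDD 1, 2 or 3 (adjusted p up to 0.121), and ended that of cyp1c1 without any 1 of the 8 TCDD libraries (up to 0.132).

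The other CYP1 genes differed among themselves. In cyp1d1, a CYP1 family member that WT embryos expressed without TCDD as well, values were 18.2, 19.2, 17.6 and 15.1 CPM in WT TCDD and 12.1, 10.5, 11.8 and 11.4 CPM in slincRosu3 TCDD. It was 1.54-fold lower in the mutant (log2 -0.62, SE 0.113, adjusted p = 0.00751), called in each of the 10 fits with libraries left out, and 1.81-fold lower without TCDD too (adjusted p = 0.000529). The levels of cyp1b1 were 51.8, 60.4, 38.9 and 35.5 CPM in WT TCDD and 67.7, 73.4, 64.3 and 72.2 CPM in slincRosu3 TCDD. These groups did not overlap, and the difference of 0.57 (log2, SE 0.226) was as large as those of ahrra and cyp1c1 but did not pass (adjusted p = 0.243). It was 0.31 without WT TCDD 3 and 4 and 0.9 without WT TCDD 1 and 2, and passed in neither fit. The close relative cyp1c2 was nearly level, at 84.4, 81, 74.2 and 81.9 CPM in WT and 77.1, 84.7, 98 and 85 CPM in slincRosu3, a log2 difference of 0.10 (adjusted p = 0.734).

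Among the 18 tested genes of the AHR target list 3 were higher and 1 lower (22.2% called, against 1.86% of all genes). Their median log2 fold change was 0.19, against -0.0119 for all genes. The list was chosen with earlier results of these data known, so its share is a description only. Its lower call, cyp1d1, had a WT mean of 17.5 CPM with TCDD and 21.8 CPM without it. Of the 14 members that were not called, tiparp, which encodes an AHR-induced poly(ADP-ribose) polymerase, had a log2 difference of 0.04 and wfikkn1, for a secreted protease inhibitor-like protein, 0.28. Without WT TCDD 3 and 4 the called members were cyp1d1 (lower), foxq1a (lower, log2 -1.17) and gstp1 (higher, log2 0.48). Without WT TCDD 1 and 2 they were cyp1a, ahrra, cyp1c1 and nfe2l2a (higher) and cyp1d1 (lower), and foxq1a, a forkhead transcription factor gene, stood at 0.45. None of 9 AHR pathway components was called, a list with the receptor, its partners and chaperones and a median of 0.01. The receptor gene ahr2 had 136, 144, 126 and 103 CPM in WT TCDD and 128, 138, 135 and 135 CPM in slincRosu3 TCDD, with overlapping values (log2 0.07, adjusted p = 0.872).

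**Figure D2:**
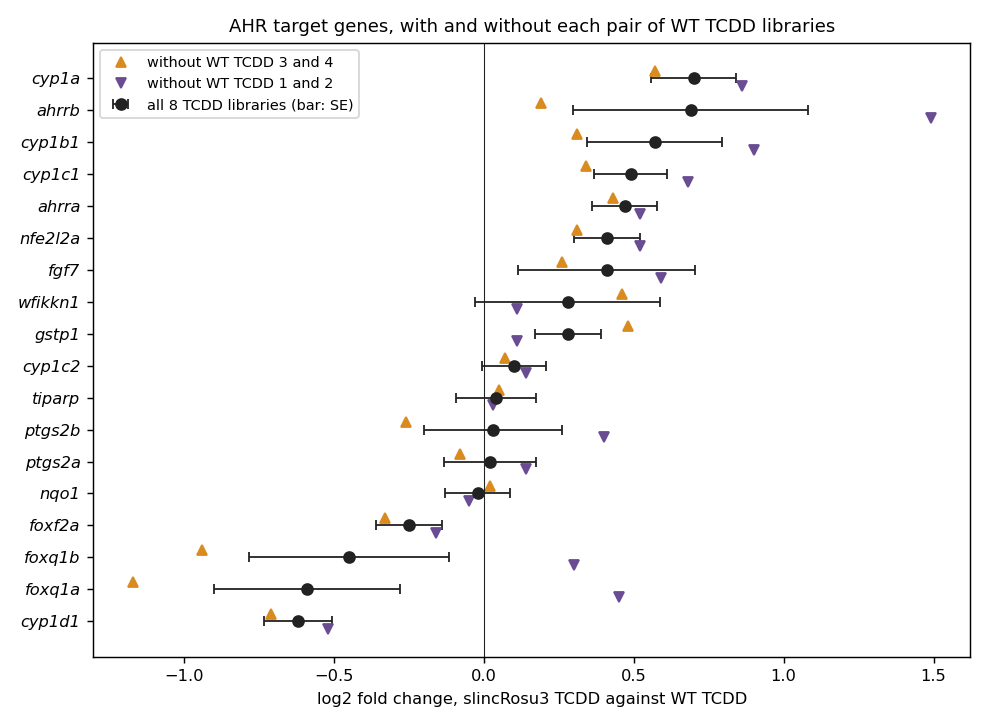
Log2 fold changes of the 18 tested AHR target genes, slincRosu3 TCDD against WT TCDD, from all 8 TCDD libraries (circles with SE) and without each pair of WT TCDD libraries (triangles). The positive values of cyp1a, cyp1b1 and cyp1c1 are larger without WT TCDD 1 and 2 than without WT TCDD 3 and 4, while foxq1a, foxq1b, ptgs2a, ptgs2b and nqo1 change sign between those fits.

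The neighbour of slincR, sox9b, did not differ between the exposed lines by this test. Its level was 67.1, 57.8, 132 and 102 CPM in WT TCDD 1 to 4 and 98, 78.1, 58.4 and 83 CPM in slincRosu3 TCDD 1 to 4. The WT values spanned those of the mutant, and the log2 difference was -0.18 (SE 0.215, adjusted p = 0.776). It was 0.35 without WT TCDD 3 and 4 (adjusted p = 0.433) and -0.56 without WT TCDD 1 and 2 (adjusted p = 0.0974), so that its direction changed with the WT libraries used. The paralog sox9a stood at 40.5, 46.2, 39.7 and 35.2 CPM in WT and 43.5, 48.8, 42.4 and 44.3 CPM in slincRosu3 (log2 0.15, adjusted p = 0.843). Among the tested genes placed by symbol in the RefSeq gene order of the assembly GRCz12tu, the 10 that precede sox9b were not called. The nearest called genes that could be placed on its chromosome were si:ch211-214b16.2, 52 placed genes away, and dhrs7ca, 57 placed genes away.

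Muscle and heart genes were split, with 2 myosins higher and a cardiac actin lower. The myosin heavy chain gene myhc4, a motor protein gene of muscle fibres, measured 28.8, 50.9, 38.5 and 49.3 CPM in WT TCDD and 129, 178, 163 and 176 CPM in slincRosu3 TCDD. Its lowest mutant library was more than 2-fold above its highest WT library, and the difference was 3.86-fold (log2 1.95, SE 0.171, adjusted p = 7.78e-06). The myosin heavy chain gene next to it in the order of placed genes, myha, was at 8.93, 10.9, 4.4 and 9.24 CPM in WT and 26.6, 43, 28.4 and 34.7 CPM in slincRosu3, 3.96-fold higher (adjusted p = 0.00172). Both calls were present in each of the 10 fits with libraries left out, and without TCDD the differences were 3.97-fold and 4.0-fold. These were the only called members among 39 skeletal muscle genes, whose median was 0.11 and whose summed level was 83300 to 101000 CPM in WT TCDD and 90300 to 101000 CPM in slincRosu3 TCDD. The actin gene actc1a, for alpha-actin of cardiac muscle, had 426, 396, 736 and 621 CPM in WT and 231, 283, 172 and 182 CPM in slincRosu3. It was 2.51-fold lower (log2 -1.33, SE 0.31, adjusted p = 0.0341), and its highest WT values were WT TCDD 3 and 4. Without those libraries the log2 difference was -0.91 (adjusted p = 0.256), and the call was also lost without slincRosu3 TCDD 1, 2, 3 or 4 or WT TCDD 3 or 4 (adjusted p up to 0.114). Without TCDD actc1a was 4.31-fold lower (adjusted p = 0.00186). It was the only member of 23 heart genes called with TCDD (median 0.12). The cardiac transcription factor gene nkx2.5, at 1.62, 1.6, 1.5 and 1.68 CPM in WT and 1.07, 0.937, 0.704 and 1.22 CPM in slincRosu3, had a log2 difference of -0.70 that did not pass (adjusted p = 0.0965). In the controls nkx2.5 was called as lower in the mutant, at -0.99 with separate groups (adjusted p = 0.0153). Near-identical myosin genes can share reads, so their separate values are uncertain, and in whole embryos fewer cells of a type and less RNA per cell cannot be told apart.

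**Figure D3:**
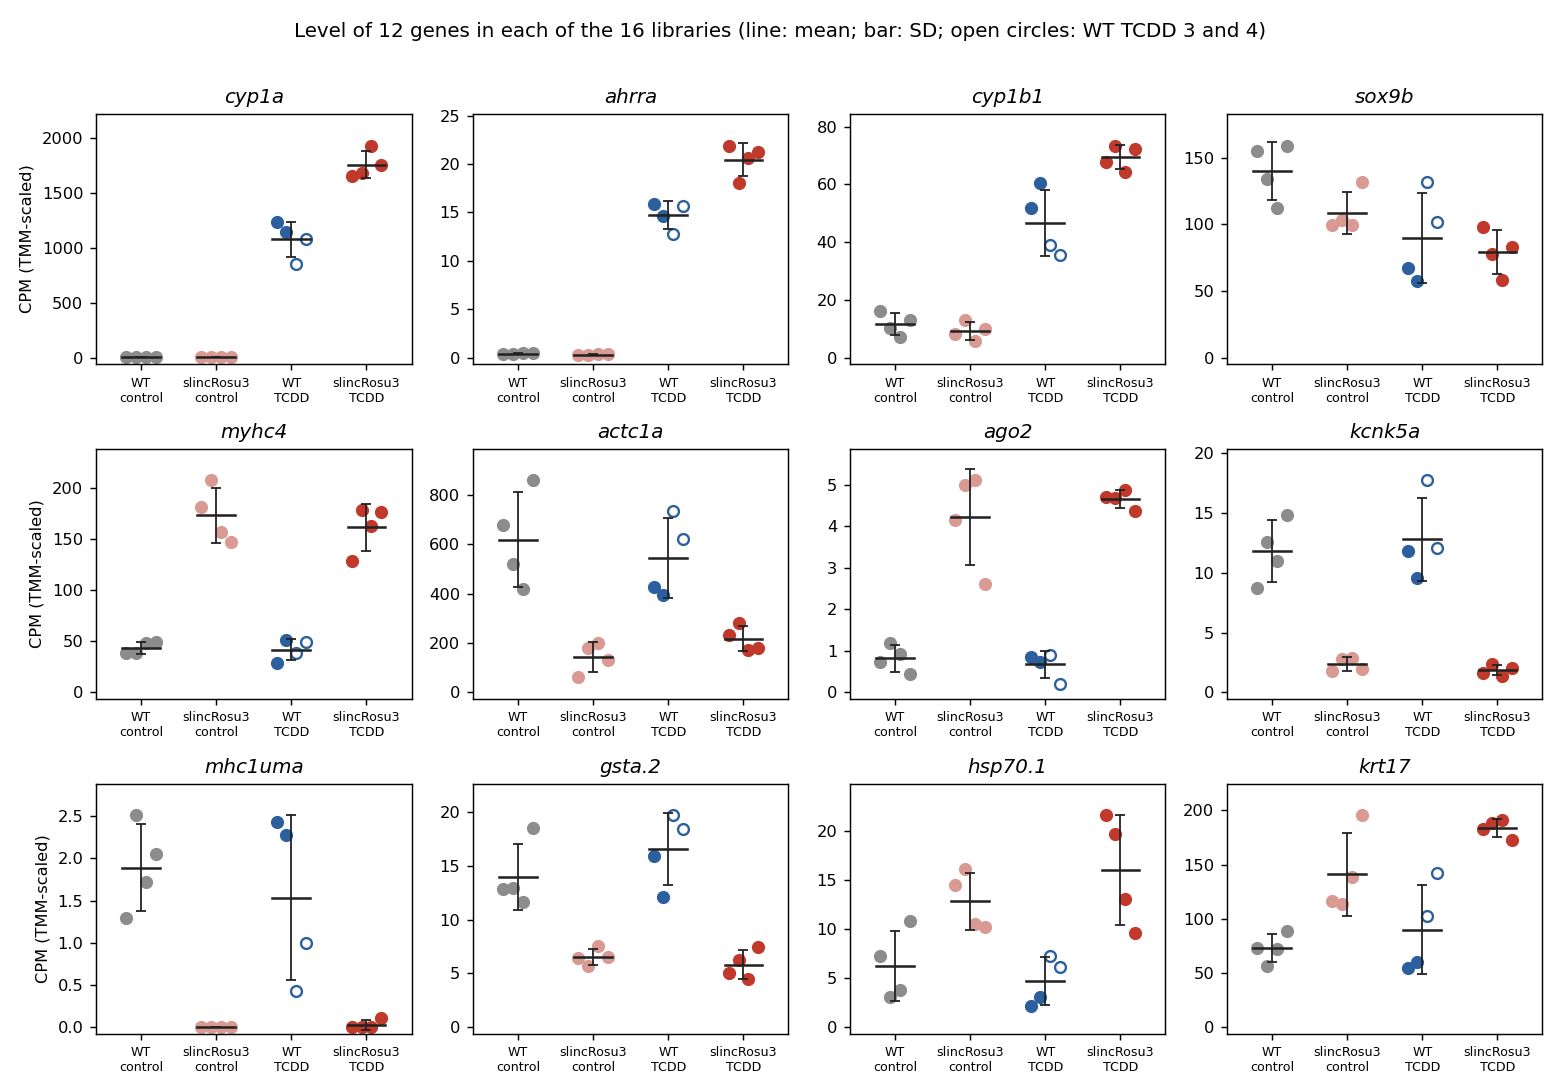
Levels of 12 genes in each library (CPM after library-size scaling, linear axes from 0), with the mean and SD of the 4 libraries of each group. The mutant and WT TCDD libraries are separate for 11 of the genes and overlap for sox9b. The control libraries of the lines are separate as well for myhc4, actc1a, ago2, kcnk5a, mhc1uma, gsta.2 and krt17.

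Class I major histocompatibility genes of the U lineage, which encode proteins that present peptides to T cells, were low in WT and at or near 0 counts in the mutant. mhc1ula had 128 counts over the 4 WT TCDD libraries (1.73, 2.84, 1.24 and 0.945 CPM) and 0 counts over the 4 slincRosu3 TCDD libraries, a decrease of at least 40.4-fold if 3 counts in all are taken as the detection limit. Its neighbour in the order of placed genes, mhc1uma, had 116 counts in WT TCDD (2.44, 2.28, 0.43 and 0.997 CPM) and 2 in slincRosu3 TCDD, both in slincRosu3 TCDD 4, a scaled ratio of 54.9 (95% counting interval 14.9 to 459, counting error only). mhc1uba stood at 0.812, 1.14, 1.18 and 0.997 CPM in WT and 0, 0, 0.271 and 0 CPM in slincRosu3, and was 13.6-fold lower by the fit (adjusted p = 0.0231). The mhc1ula and mhc1uma differences passed in all 10 fits with libraries left out (adjusted p of 0.000328 and 0.00337 with all libraries), although the fitted log2 difference of mhc1uma moved from -5.47 to -6.08 without WT TCDD 3 and 4 and to -4.38 without WT TCDD 1 and 2. That of mhc1ula was -7.33 in the latter fit. The call of mhc1uba was lost without WT TCDD 3 and 4 (adjusted p = 0.0764) and without slincRosu3 TCDD 1, 2 or 4 (up to 0.0827). In the same list cd28l, for a T-cell costimulatory receptor-like protein, was 4.88-fold lower (adjusted p = 0.0275), with overlapping values of 2.81, 0.621, 1.77 and 2.0 CPM in WT and 0.239, 0.331, 0.65 and 0.222 CPM in slincRosu3, and lost its call without WT TCDD 3 and 4 (0.105) and without slincRosu3 TCDD 1, 2 or 4 or WT TCDD 1 or 4 (up to 0.0985). Thus 4 of 14 tested members of the antigen presentation list were lower and none higher (28.6% called, against 1.86% of all genes). The other class I genes, the peptide transporter genes tap1 and tap2t and the light-chain gene b2m were not called, with log2 differences from -0.5 to 0.46 over the 10 uncalled members. Members of the U lineage resemble each other closely, so their separate counts are uncertain.

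Several single genes outside these groups separated the lines by wide margins. ago2, an Argonaute gene of the small RNA pathway, measured 0.866, 0.724, 0.913 and 0.21 CPM in WT TCDD and 4.71, 4.68, 4.88 and 4.38 CPM in slincRosu3 TCDD, 6.83-fold higher (log2 2.77, SE 0.328, adjusted p = 0.000278). It was the only called member of 15 small RNA pathway genes, whose median was 0.04. kcnk5a, a gene for a background potassium channel, was at 11.9, 9.57, 17.7 and 12.1 CPM in WT and 1.61, 2.37, 1.41 and 2.05 CPM in slincRosu3, 6.86-fold lower (adjusted p = 6.46e-06). sdc3, for the cell-surface heparan sulfate proteoglycan syndecan 3, was 2.84-fold lower, at 26.4, 28, 29.2 and 24.9 CPM against 8.59, 14.7, 6.83 and 8.09 CPM (adjusted p = 0.000764). ggact.2, for a gamma-glutamylamine cyclotransferase, was 2.75-fold higher, with 6.82, 4.97, 8.76 and 7.03 CPM in WT and 19.6, 20, 18.3 and 18 CPM in slincRosu3 (adjusted p = 7.87e-05). MCHR1, whose symbol is that of a melanin-concentrating hormone receptor, stood at 0.595, 0.31, 1.18 and 2.47 CPM in WT and 3.76, 4.52, 4.17 and 4.93 CPM in slincRosu3 and was 3.8-fold higher (adjusted p = 0.012). Its highest WT values were again WT TCDD 3 and 4, and without them the log2 difference rose from 1.93 to 3.26, against 1.24 without WT TCDD 1 and 2. etf1a, for the translation release factor eRF1, was 2.74-fold higher at a low level (0.649, 1.09, 0.591 and 0.997 against 2.09, 2.48, 2.93 and 1.66 CPM, adjusted p = 0.00656). All 6 calls were present in each of the 10 fits with libraries left out.

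The 3 smallest p-values belonged to genes known only by clone names. All 3 were also called in the controls in the same direction (adjusted p at most 2.75e-05). There the log2 differences were 3.37 for si:ch73-329n5.1, -2.58 for si:ch1073-190k2.1 and -7.88 for si:ch211-121a2.2. si:ch73-329n5.1 rose from 0.217, 0.207, 0.483 and 0.262 CPM in WT TCDD to 6.98, 6.72, 5.91 and 6.09 CPM in slincRosu3 TCDD, 21.5-fold (adjusted p = 1.51e-06). si:ch1073-190k2.1 was 6.48-fold lower, from 14.3, 14.2, 18.3 and 13 to 2.51, 2.2, 2.01 and 2.49 CPM (adjusted p = 1.51e-06). si:ch211-121a2.2 had 1318 counts in WT TCDD (26.7, 19.5, 11.1 and 12.7 CPM) and 7 in slincRosu3 TCDD (0, 0.11, 0.0542 and 0.222 CPM), a fitted 167-fold difference (adjusted p = 2.7e-06). Among the called genes, totals of 3 counts or fewer over a group were found in 1 direction only. Just above that cut, cfhl3 had 6 counts over the WT TCDD libraries and 67 over the slincRosu3 TCDD libraries. Of the 389 called genes, 14 had 3 counts or fewer over the slincRosu3 TCDD libraries, 5 of them 0, and none had 3 or fewer over the WT TCDD libraries. Besides mhc1ula those at 0 were si:dkey-217f16.3, si:dkey-88j15.4, si:dkey-71b5.3 and ENSDARG00000116043, at least 13.9-fold to 26.2-fold lower at the same detection limit. How many of all tested genes had so few counts in each line is not given here, so the count of 14 is a description of called genes only.

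Innate immunity genes of the list that were called were higher in the mutant, and they include parts of the complement system, the plasma proteins that tag and lyse foreign cells. c3a.3, a complement C3 gene, measured 5.09, 9.15, 16.4 and 11.9 CPM in WT TCDD and 20.1, 36.6, 44.4 and 26.6 CPM in slincRosu3 TCDD, 3-fold higher (adjusted p = 0.0271). cfb, for complement factor B, had 43.2, 41, 47.2 and 39.2 CPM in WT and 76.2, 82.1, 83.6 and 81.1 CPM in slincRosu3 (1.89-fold, adjusted p = 0.049). ltc4s, for leukotriene C4 synthase, was at 0.217, 0.724, 0.322 and 0.367 CPM against 0.955, 1.43, 1.46 and 1.66 CPM (3.33-fold, adjusted p = 0.0104). In each the groups were separate. These were 3 of 33 tested innate immunity genes (9.09% called, against 1.86% of all genes, none lower, median 0.33). In the controls, where 1.54% of all genes were called, 4 of the 33 were. Among them were c3a.3 (log2 2.17, adjusted p = 0.00424, against 1.59 with TCDD) and ltc4s (2.22, 0.00278, against 1.74), both higher in the mutant. The control difference of cfb was 0.64 and did not pass (0.246). The family of complement genes, selected by symbol after values were seen, had 5 of 28 higher and none lower (median 0.43), against 0.885% of all genes higher. Besides c3a.3 and cfb these were c6 (1.63-fold), the factor B relative cfbl (1.53-fold) and the factor H relative cfhl3. cfhl3 was low in WT, at 0.271, 0.0517, 0 and 0 CPM against 1.31, 0.606, 0.813 and 1.05 CPM in slincRosu3 (adjusted p = 0.00686), and was called in each of the 10 fits, with a fitted log2 difference of 2.52 without WT TCDD 3 and 4 and 7.11 without WT TCDD 1 and 2, where the remaining WT libraries are at 0. The others were less firm. Leaving out 1 library ended the call of cfb and of cfbl without any 1 of the 8 TCDD libraries (adjusted p up to 0.122 and 0.123), that of c3a.3 without slincRosu3 TCDD 2, 3 or 4 or WT TCDD 1, 2 or 4 (up to 0.0768), and that of c6 without slincRosu3 TCDD 1, 2 or 4 or WT TCDD 1, 2 or 4 (up to 0.122). The call of ltc4s was lost without WT TCDD 3 and 4 together (0.0823), and in that fit the cytokine genes il1b (log2 -1.56) and tnfb (-1.95) were called as lower. The log2 difference of c3a.3 was 2.17 there (adjusted p = 0.0212) and 1.17 without WT TCDD 1 and 2, where its call ended (0.0905). Calls also ended for cfb (0.164 without WT TCDD 3 and 4, 0.102 without WT TCDD 1 and 2), c6 (0.0535 and 0.104) and cfbl (0.136 without WT TCDD 1 and 2). f13a1a.1, for the A subunit of coagulation factor XIII, was 6.73-fold higher at 0.955, 0.771, 1.63 and 0.72 CPM against 0.162, 0.259, 0.161 and 0 CPM (adjusted p = 0.0136; 0.0718 without WT TCDD 3 and 4). The interferon list had no called member among 13, although gig2e, which encodes a virus-induced fish protein and is outside that list, was 3.3-fold higher (adjusted p = 0.00781; 0.0533 without WT TCDD 3 and 4).

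Of 16 heat shock genes, for chaperones that bind unfolded proteins, 3 were higher in the mutant and none was lower. hsp70.1 (ENSDARG00000092362) was at 2.17, 3.1, 7.3 and 6.19 CPM in WT TCDD and 21.6, 19.7, 13.1 and 9.64 CPM in slincRosu3 TCDD, 3.41-fold higher (adjusted p = 0.0275). hsp70.3 followed the same order of libraries, with 3.57, 3.98, 8.49 and 6.82 CPM in WT and 29.2, 22.6, 13 and 8.69 CPM in slincRosu3 (3.21-fold, adjusted p = 0.0343). In both genes the highest WT library, WT TCDD 3, came within 1.5-fold of the lowest mutant library, slincRosu3 TCDD 4. dnajb1b, for an Hsp40 co-chaperone, was 1.61-fold higher (17.2, 14.6, 16 and 16.1 against 30.9, 28.2, 25.1 and 18.8 CPM, adjusted p = 0.0325), and hsph1, for an Hsp110 chaperone, 1.71-fold (2.33, 2.38, 2.42 and 2.89 against 5.01, 3.86, 4.34 and 3.93 CPM, adjusted p = 0.0341). The heat shock list had 18.8% called, against 1.86% of all genes. Its median was 0.2, with 11 of 16 members positive, and hsph1, chosen after its values were seen, is outside that list. No member was called without WT TCDD 1 and 2, where the log2 difference was 1.24 for hsp70.1 (adjusted p = 0.102) and 1.26 for hsp70.3 (0.133). The values were 2.6 and 2.29 without WT TCDD 3 and 4, both called. Neither pair fit called dnajb1b (0.123 without WT TCDD 3 and 4, 0.0695 without WT TCDD 1 and 2) or hsph1 (0.0718 and 0.101). Single libraries also decided these calls. That of hsp70.1 was lost without slincRosu3 TCDD 1 or 2 or WT TCDD 1 or 2 (adjusted p up to 0.0975) and that of hsp70.3 without slincRosu3 TCDD 1 or 2 or WT TCDD 1, 2 or 4 (up to 0.135). That of dnajb1b was lost without slincRosu3 TCDD 1, 2 or 3 or WT TCDD 1, 2, 3 or 4 (up to 0.125) and that of hsph1 without slincRosu3 TCDD 1, 2, 3 or 4 or WT TCDD 1, 2 or 3 (up to 0.125). A second gene under the symbol hsp70.1 had a log2 difference of -0.25 (adjusted p = 0.802), and reads of these near-identical genes may have been split. In control embryos none of these genes was called, and the log2 difference of hsp70.1 was 1.05.

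Genes of detoxification moved both ways. 4 of 22 glutathione transferase genes, enzymes that couple glutathione to electrophiles, were lower and none higher, against 0.976% of all genes lower. The family was picked by symbol after values were seen (median 0.09). gsta.2 measured 15.9, 12.1, 19.7 and 18.4 CPM in WT TCDD and 5.07, 6.23, 4.44 and 7.48 CPM in slincRosu3 TCDD, 2.84-fold lower (log2 -1.51, SE 0.189, adjusted p = 0.000433). gstt1b was at 17.8, 18.8, 17.9 and 17.9 CPM against 8.3, 7.38, 13.5 and 12.1 CPM (1.75-fold lower, adjusted p = 0.0168), mgst2 at 16.2, 22.2, 25.4 and 17.6 against 10.9, 12.2, 12.8 and 12.2 CPM (1.69-fold, 0.00842) and mgst3a at 30.9, 32.8, 31.8 and 34 against 17.3, 22.6, 23.3 and 19.3 CPM (1.57-fold, 0.0125). All 4 were called without TCDD as well. Leaving out libraries kept gsta.2 and mgst2 called in each of the 10 fits, while gstt1b was lost without slincRosu3 TCDD 1 or 2 (adjusted p up to 0.0719), mgst3a without slincRosu3 TCDD 1 (0.0548), and both without WT TCDD 3 and 4 (0.0645 and 0.0544). In the list of 26 Nrf2 genes, the oxidative stress response, 7.69% were called, against 1.86% of all genes (median -0.06). Of the 26, 2 were higher and none lower. Among them was the glutathione peroxidase gene gpx3 (1.72-fold, adjusted p = 0.0351), whose call was lost without slincRosu3 TCDD 1, 2, 3 or 4 or WT TCDD 1 or 4 (adjusted p up to 0.123), without WT TCDD 3 and 4 (0.08) and without WT TCDD 1 and 2 (0.0506). The glucuronosyltransferase gene ugt2b1 was 1.8-fold higher (1.84, 2.02, 1.88 and 1.94 against 3.58, 3.31, 3.52 and 3.43 CPM, adjusted p = 0.00663), the only called gene of 21 for conjugating enzymes. Among 40 cytochrome P450 genes outside the CYP1 family, cyp4v8 (2.67-fold, adjusted p = 0.0144) and cyp2p10 (1.64-fold, adjusted p = 0.0214) were higher and none lower. That was 5% called, against 1.86% of all genes. Both were called in the controls as well, at log2 differences of 1.85 (adjusted p = 0.00253) and 0.72 (0.0205). With TCDD, neither passed without WT TCDD 3 and 4 (0.13 and 0.108). With 1 library left out, cyp4v8 was lost without slincRosu3 TCDD 4 (0.0584) and cyp2p10 without slincRosu3 TCDD 1, 3 or 4 or WT TCDD 2 or 4 (up to 0.0785).

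Tissue marker lists were mostly level, with single members called. In the lens, crygs1, a gamma-S crystallin gene, was 3.6-fold higher at 2.51, 2.87, 4.82 and 2.99 CPM against 0.433, 0.931, 1.13 and 1.16 CPM in WT TCDD (adjusted p = 0.0296). The other 24 tested lens genes had negative log2 differences, from -0.55 to -0.11, and none was called. The lens list summed to 8390 to 10800 CPM in WT TCDD and 7060 to 8460 CPM in slincRosu3 TCDD, groups that overlap slightly, and its median was -0.25. Without WT TCDD 3 and 4 the lens median was -0.13, with 4 members positive. It was -0.39 without WT TCDD 1 and 2, with 1 member positive. The call of crygs1 was lost without any 1 of the 8 TCDD libraries (adjusted p up to 0.0894), without WT TCDD 3 and 4 (0.0652) and without WT TCDD 1 and 2 (0.0955). Without WT TCDD 1 and 2 the crystallin genes crygmx and crygn2 were called as lower instead. Of 25 photoreceptor and retina genes 21 were negative (median -0.41, against 0.29 without TCDD), with none called. In the epidermis krt17, a keratin gene, stood at 54.7, 60.3, 103 and 142 CPM in WT and 183, 188, 192 and 172 CPM in slincRosu3 (2.04-fold, adjusted p = 0.0375), and anxa1a, for a membrane-binding annexin, at 147, 113, 139 and 126 against 239.8, 222, 202 and 235 CPM (1.71-fold, adjusted p = 0.0378). Of 21 epidermal genes these 2 were higher and none lower (9.52% called, against 1.86% of all genes). In the controls krt17 was 1.94-fold higher with separate groups (adjusted p = 0.0659). There anxa1a was 1.68-fold higher with overlapping groups (0.0514), and neither passed. The krt17 difference was 1.68 on the log2 scale without WT TCDD 3 and 4 and 0.58 without WT TCDD 1 and 2 (adjusted p = 0.119). Its call was lost without slincRosu3 TCDD 1, 2, 3 or 4 or WT TCDD 1, 2 or 3 (adjusted p up to 0.0975), and that of anxa1a without any 1 of the 8 TCDD libraries (adjusted p up to 0.117) and in both pair fits (0.134 without WT TCDD 3 and 4, 0.0783 without WT TCDD 1 and 2).

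The remaining list members called were also single genes. vtg1, for the yolk precursor vitellogenin, was 3.17-fold higher at a low level (0.271, 0.569, 0.376 and 0.525 against 1.01, 2.26, 1.19 and 1.11 CPM, adjusted p = 0.0407), 1 of 26 liver and yolk genes, and its call was lost without any 1 of the 8 TCDD libraries (up to 0.148). ctsl.1, a cathepsin gene counted with the hatching gland, was 1.78-fold higher (5.25, 6.36, 3.76 and 6.82 against 8.83, 9.64, 11.8 and 9.25 CPM, adjusted p = 0.0336), 1 of 7. fabp7a, the brain fatty acid binding protein gene of radial glia, was 1.38-fold lower (376, 393, 376 and 467 against 252, 289, 342 and 288 CPM, adjusted p = 0.0493), 1 of 20 glial genes. nr1d1, for the circadian repressor Rev-erb alpha, was 3.93-fold lower (3.14, 2.74, 0.967 and 0.945 against 0.597, 0.551, 0.596 and 0.222 CPM, adjusted p = 0.0456), 1 of 26 clock genes. The nr1d1 level was high in WT TCDD 1 and 2 only, and without those libraries the log2 difference was -0.96 (adjusted p = 0.285). With 1 library left out, the call of ctsl.1 was lost without slincRosu3 TCDD 1, 2, 3 or 4 or WT TCDD 1 or 3 (adjusted p up to 0.101). That of fabp7a was lost without slincRosu3 TCDD 1, 2 or 4 or WT TCDD 1, 2, 3 or 4 (up to 0.18), and that of nr1d1 without slincRosu3 TCDD 1, 2, 3 or 4 or WT TCDD 1 or 2 (up to 0.161). Without WT TCDD 3 and 4 the calls of vtg1 (0.151), ctsl.1 (0.0865) and fabp7a (0.181) ended, while nr1d1 was at -2.56. Without WT TCDD 1 and 2 those of vtg1 (0.0851) and ctsl.1 (0.0536) ended.

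Altogether 16 of 32 gene lists had a called member and 16 had none. Those with none were the AHR pathway components, erythroid, photoreceptor and retina, cartilage, neuron, neural crest and pigment, pituitary, interferon, cell cycle, hypoxia, Wnt, matrix remodelling, endothelium, retinoid, steroid and glucocorticoid, and p53 lists. Their medians ran from -0.41 (photoreceptor and retina) to 0.26 (hypoxia). The largest single difference among them was that of fosab, an immediate-early transcription factor gene in the matrix remodelling list, at a log2 of -2.69 that did not pass (adjusted p = 0.0602). It was called as lower without WT TCDD 3 and 4 (log2 -3.59), together with fosl1a (-1.26) and junbb (-1.43), and stood at 0.27 without WT TCDD 1 and 2. Lists hold 30 of the 389 called genes.

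**Figure D4:**
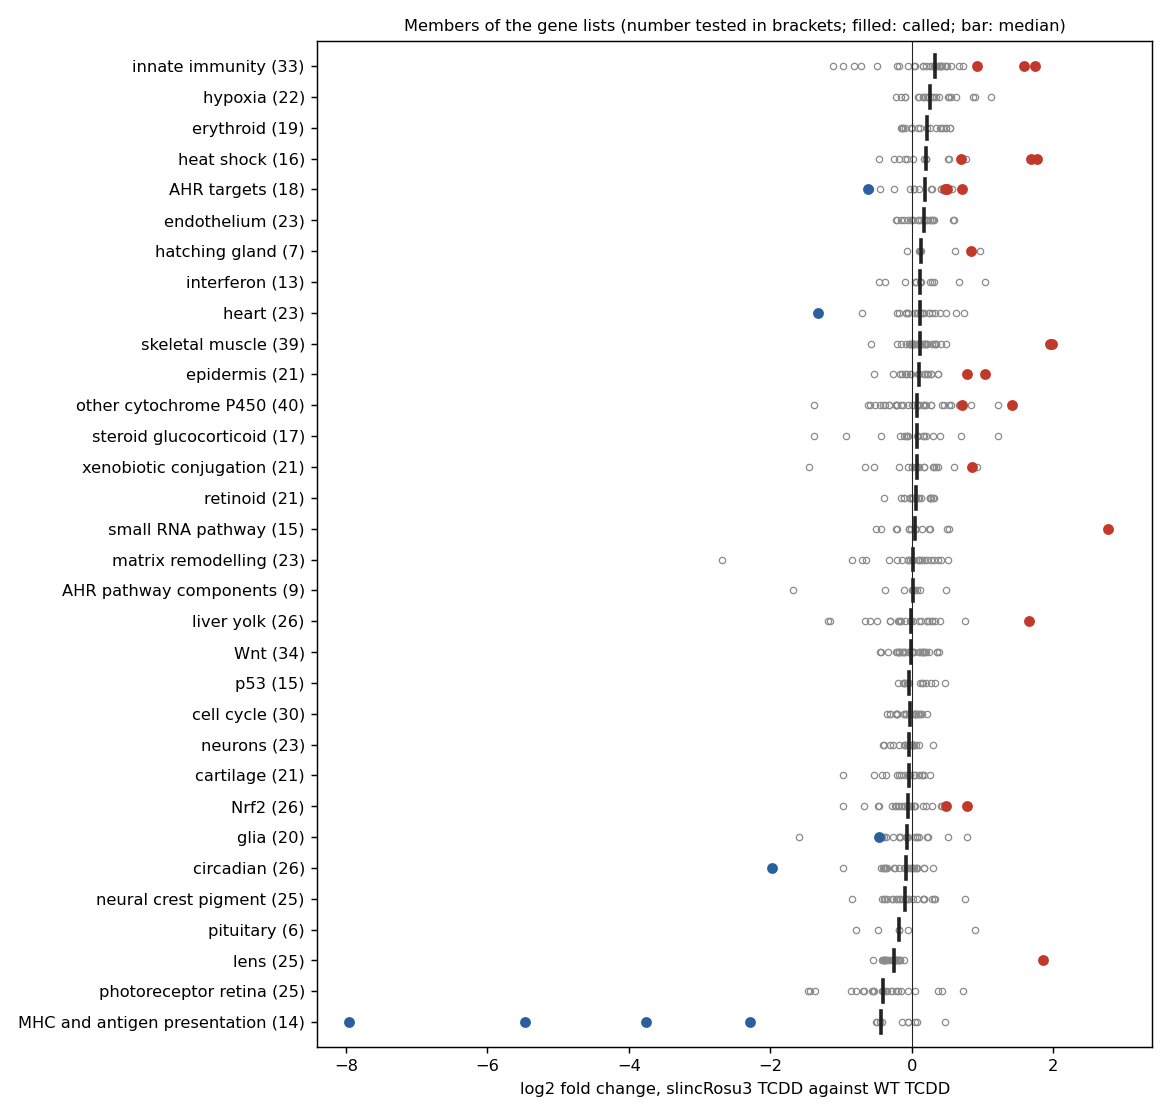
Log2 fold change, slincRosu3 TCDD against WT TCDD, of every tested member of the 32 lists, ordered by the list median (bar), with called members filled. In 16 lists no member was called, and the antigen presentation list holds the strongest decreases, with mhc1ula at -7.96.

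By level, the 3 most abundant called genes whose symbol is no clone, locus or accession name were cyp1a, cyp1c1 and rpl31. rpl31, for a protein of the large ribosomal subunit, had 586, 524, 663 and 863 CPM in WT TCDD and 1309, 1233, 1137 and 1122 CPM in slincRosu3 TCDD, 1.82-fold higher (adjusted p = 0.0237), and lost its call without slincRosu3 TCDD 1 or 2 or WT TCDD 1, 2 or 3 (adjusted p up to 0.0783). Its log2 difference was 1.12 without WT TCDD 3 and 4 and 0.65 without WT TCDD 1 and 2, where it was not called (0.104). Among further genes with large changes, tex47 was 3.41-fold lower (32.2, 28.8, 22.7 and 12.4 against 5.79, 9.64, 6.29 and 6.42 CPM, adjusted p = 0.0143). tlr4ba, for a Toll-like receptor, was 3.27-fold lower (2.0, 2.22, 0.859 and 0.682 against 0.656, 0.386, 0.325 and 0.388 CPM, adjusted p = 0.0318) and, like nr1d1, was highest in WT TCDD 1 and 2 (log2 -0.82, adjusted p = 0.224 without them). pitpnc1, for a phosphatidylinositol transfer protein, was 4.64-fold lower (adjusted p = 0.0188), the connexin gene gjd5 4.31-fold (0.0275), tpmt.2, for a thiopurine methyltransferase, 3.01-fold (0.0295) and zc2hc1c 2.85-fold (0.0276). The sialyltransferase gene st3gal1l was 3.86-fold higher (0.0126; 0.0859 without WT TCDD 3 and 4). Angiopoietin genes, for ligands and relatives of ligands of vessel growth, had 3 of 13 members lower and none higher, against 0.976% of all genes lower. This family was selected after values were seen, and its median was 0.16 with 9 members positive. The called members were angpt1 (6.93, 7.09, 6.71 and 8.45 against 3.4, 5.01, 3.41 and 3.38 CPM, 1.92-fold, 0.00475), angptl2a (1.53-fold, 0.0417) and angptl1b (2.87-fold, 0.0443). The apoptosis gene casp3b was 1.79-fold lower (0.0126; 0.0585 without WT TCDD 1 and 2), the neuronal surface protein gene thy1 1.77-fold (0.0279) and the gonadal transcription factor gene dmrt1 6.34-fold (0.032), all chosen after their values were seen. Of the 12 genes named after tex47 in this paragraph, angpt1, st3gal1l and casp3b stayed called in every fit without 1 library. Each of the other 9 lost its call without slincRosu3 TCDD 4 and without at least 2 further libraries, at adjusted p up to 0.163, and tex47 lost its call without slincRosu3 TCDD 1 or 4 (up to 0.061). The fit without WT TCDD 3 and 4 ended the calls of dmrt1 (log2 -1.93, adjusted p = 0.242), thy1 (0.185), gjd5 (0.101) and angptl1b (0.172). Without WT TCDD 1 and 2 those of tex47 (log2 -1.32, adjusted p = 0.0688), tpmt.2 (0.085), zc2hc1c (0.0551) and angptl2a (0.12) ended.

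Many of these differences were present without the dioxin. In the control embryos, which share no library with the TCDD comparison, 321 genes (1.54%) were called between the lines, 136 higher and 185 lower in slincRosu3, and the groups were separate for 6.27% of the genes tested. Of the 389 genes called with TCDD, 161 (41.4%) were called in the controls in the same direction, 70 higher and 91 lower, and none in the opposite one. These 161 made up 50.2% of the control calls. Their median absolute log2 difference with TCDD was 1.42, and their median in the controls, counted in the direction seen with TCDD, was 1.33. The other 228 genes had a smaller median absolute difference with TCDD, 0.828. In the controls 217 of the 228 had the same sign, 129 had an unadjusted p under 0.05, and the median difference counted in the direction seen with TCDD was 0.399. The shares of all genes tested with the same sign or such a p are not given here, so 217 and 129 are a description only. Genes present in both sets include myhc4, myha, actc1a, ago2, kcnk5a, ggact.2, cyp1d1, sdc3, mhc1ula, mhc1uma, c3a.3, ltc4s and the 4 glutathione transferases. Others are si:ch73-329n5.1, si:ch1073-190k2.1, si:ch211-121a2.2, cyp4v8, cyp2p10, MCHR1, etf1a, angpt1, casp3b, thy1, tex47, cd28l and crygs1. Of the 140 calls present in each fit without 1 TCDD library, 92 were also called in the controls, and of the 112 present in each of the 10 fits, 81 were.

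The difference between the line effects with and without TCDD was tested directly. By edgeR's quasi-likelihood test 0 genes passed (smallest adjusted p 0.946; 899 genes, 4.3%, at an unadjusted p under 0.05; DESeq2's Wald test also called 0). A call with TCDD alone is thus not shown to depend on the dioxin. Among the 389 called genes 75 had an unadjusted p under 0.05 for the difference, 68 of them among the 228. The difference uses the same TCDD libraries that gave these calls, and the 228 were selected as not called in the controls. That selection by itself raises both counts, so they are a description only. Among called genes whose symbol is no clone, locus or accession name, the 5 smallest p-values for the difference belonged to coch, gchfr, ggact.2, celf5a and plekho1a. coch, for the inner-ear matrix protein cochlin, was at 0.866, 0.621, 0.591 and 0.84 CPM in WT TCDD and 0.179, 0.22, 0.217 and 0.166 CPM in slincRosu3 TCDD, but at 0.505, 0.418, 0.676 and 0.124 CPM in WT control and 0.851, 0.625, 0.789 and 0.521 CPM in slincRosu3 control. It was thus 3.63-fold lower with TCDD (adjusted p = 0.0212) and had a log2 difference of 0.66 without it (unadjusted p of the difference 0.000167). gchfr, for the feedback regulator of the tetrahydrobiopterin enzyme GTP cyclohydrolase, was at 3.36, 2.95, 3.71 and 3.94 CPM in WT TCDD and 7.58, 6.5, 7.04 and 7.64 CPM in slincRosu3 TCDD. In the controls it was at 1.68, 1.83, 1.98 and 2.8 and 2.34, 1.67, 1.84 and 2.08 CPM, so that log2 differences were 1.04 with and -0.06 without TCDD (unadjusted p = 0.000328). plekho1a, for a pleckstrin homology domain protein, had differences of -0.91 and -0.09 (unadjusted p = 0.00108), celf5a, for an RNA-binding protein, -0.48 and 0.17 (0.00081), and wasf3a, for an actin regulator, -1.61 and 0.00 (0.00515). With 1 TCDD library left out, the TCDD call of coch was lost without slincRosu3 TCDD 1, 2, 3 or 4 or WT TCDD 1 or 4 (adjusted p up to 0.0788), that of wasf3a without slincRosu3 TCDD 1, 2 or 4 or WT TCDD 1, 2 or 4 (up to 0.107) and that of celf5a without any 1 of the 8 TCDD libraries (up to 0.132). The fit lacking WT TCDD 3 and 4 also ended the calls of coch (0.0633), wasf3a (0.0718) and celf5a (0.171), and the fit lacking WT TCDD 1 and 2 that of wasf3a (0.0567). For ggact.2 the difference was smaller with TCDD, 1.46 against 2.42 (0.000362). For cyp1a the differences were 0.70 and 0.27 (0.0817), for ahrra 0.47 and -0.37 (0.0371) and for cyp1b1 0.57 and -0.33 (0.0155). The ahrra value without TCDD rests on control levels of 0.468 CPM or less. For cyp1c1 the line difference was as large without TCDD, 0.49 with and 0.53 without it (0.86), and its control groups were separate. That of cyp1c2 was 0.10 with and 0.35 without TCDD (0.192). Without WT TCDD 3 and 4, WT control 4 and slincRosu3 control 4, 20 genes passed the test of the difference.

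**Figure D5:**
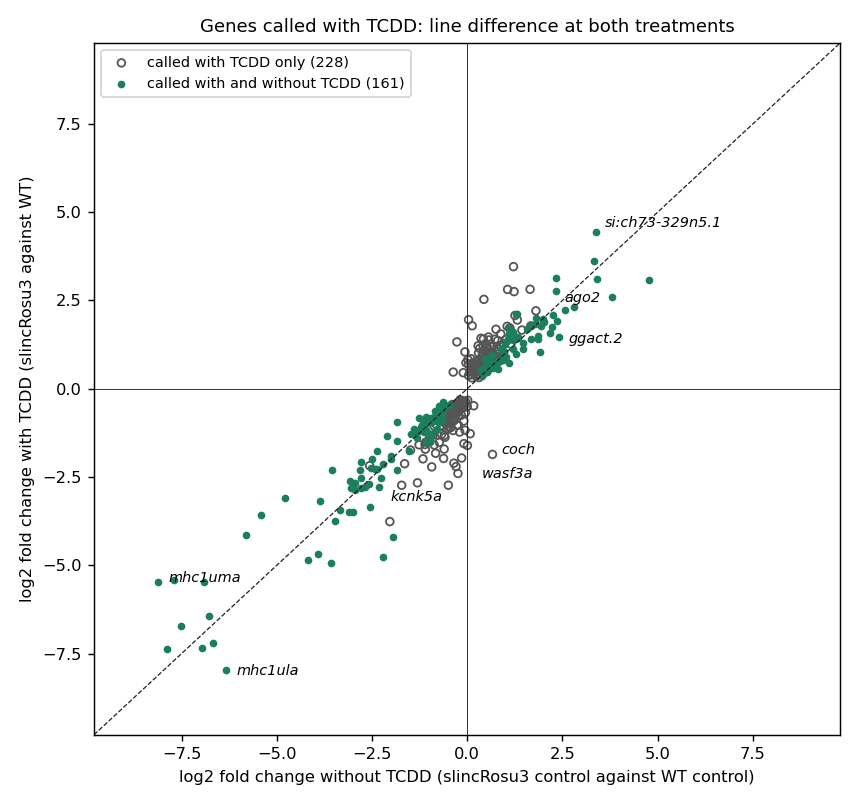
The 389 genes called with TCDD, with the log2 fold change of slincRosu3 against WT without TCDD (horizontal) and with TCDD (vertical); the dashed line marks equal differences. The 161 genes called at both treatments (filled) lie in the same-sign quadrants, while 11 of the 228 called with TCDD only (open) have the opposite sign without it, coch and celf5a among them.

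Some called genes were neighbours in the gene order of GRCz12tu. That order counts only the 16861 tested genes placed by symbol, so other genes may lie between them. Adjacent in it were mhc1ula and mhc1uma, myhc4 and myha, and cyp1d1 and anxa1a, while cfb and cfbl lay 2 places apart. Similar genes can share reads, and reads of genes that overlap on opposite strands cannot be separated without a stated strand setting. Whether these neighbours overlap was not examined, so such pairs need not be independent differences. Only 253 of the 389 called genes (65%) could be placed by symbol, so positions do not cover the whole set. Of these 253, 57 (22.5%) had another called gene within 5 neighbours on either side. The share was 13.4% over all 16861 placed genes, and the cause of the difference was not tested.

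The authors' deposited table, made with DESeq2, gives its own version of this comparison. It lists 671 genes at an adjusted p under 0.05 (2.82% of its 23792 rows), 333 higher and 338 lower. It shares 384 genes with the 389 called here, 98.7% of that list and 58.7% of the 654 authors' calls that were tested here. The authors' deposited table gives all 389 the same direction.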

How the data were processed

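RNA from whole zebrafish embryos was sequenced, and the authors deposited whole-number read counts per gene for the 16 libraries used here, 4 per line and treatment. Per the submitters' processing notes HISAT2, STAR, DESeq2 and the build GRCz11 were used. The counting program, versions and strand setting are not given in the sources used here. In 1 library the authors deposited an estimated count, with 1 value that was not whole, which was rounded. The authors' deposited table of comparisons gives a log2 fold change and an adjusted p-value per gene. A further 48 columns could not be tied to a sample and were not used.

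Counts were tested with edgeR 4.0.16 (R 4.3.3), by the quasi-likelihood F test, two-sided, with TMM scaling and filterByExpr by group. All 16 libraries were fitted in 4 groups (12 residual degrees of freedom), with Benjamini-Hochberg adjustment over 20907 genes of 26347 and a threshold of 0.05. CPM were computed from the counts and TMM-scaled totals, and fold changes are those of the edgeR fit. A prior count of 2 entered only the log CPM behind the principal components and the correlations between libraries. Contrasts were slincRosu3 minus WT with TCDD, the same without TCDD, and their difference. Alternatives were DESeq2 1.42.0 (Wald test), its size factors, no filter, a replicate block, the TCDD libraries alone and left-out libraries. Where an arm keeps 2 libraries, the spread is shared with the other groups. On simulated counts for the TCDD contrast over 20907 genes, 26% of genes changed 1.5-fold were called. The shares were 78% at 2-fold and 100% at 4-fold. The changed genes, 50 per fold, had a mean over 1 CPM, and the libraries of a group shared 1 simulated mean. These shares therefore do not describe genes of lower level or the split among the WT TCDD libraries. Totals of 17275522 to 20100736 counts leave genes of under 1 CPM with few counts in a library, and intervals and floors cover counting error only.

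Symbols came from the authors for 21149 genes and from a gene name table for 3623, and 1575 had none. Positions came from the RefSeq gene order of GRCz12tu by symbol, and count only tested genes with a unique symbol that could be placed. The genes named are those past the threshold with separate groups, at least 1 CPM and a gene symbol with the 15 largest rises and falls. The 3 smallest p-values, up to 4 called genes per list and a fixed set of AHR and Sox9 genes were also taken. The 3 most abundant and the 5 smallest p for the difference came from called genes whose symbol is no clone, locus or accession name. Others are marked in the text as chosen after their values were seen or belong to a list, and 1 gene is not reported here. The members and the gene lists were chosen with earlier results of these data known.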

Additional observations from a re-analysis of the deposited data

Results flagged for a closer look

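In 148 sets of 4 libraries (named genes, WT TCDD and slincRosu3 TCDD apart), 14 had 1 library whose gap to the nearest other, over the range, exceeded Dixon's critical value for 4 samples. Chance gives such a gap in about 1 of 20 sets, and the causes were not tested.

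For genes near absence in the mutant, the library that stood apart was the only one with reads: mhc1uma was at 0.111 CPM in slincRosu3 TCDD 4 and mhc1uba at 0.271 CPM in slincRosu3 TCDD 3, with 0 in the others. Library slincRosu3 TCDD 2 stood apart for 4 genes. It was high for tex47 (9.64 CPM, the others at most 6.42), angpt1 (5.01 CPM, the others at most 3.41) and vtg1 (2.26 CPM, the others at most 1.19), and low for tpmt.2 (0.331 CPM, the others at least 0.716). In slincRosu3 TCDD 4 nr1d1 was low, at 0.222 CPM against at least 0.551.

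Among the WT TCDD libraries, zc2hc1c (3.41 CPM) and angptl2a (13.8 CPM) were high in WT TCDD 1, and pitpnc1 (2.79 CPM) and gstt1b (18.8 CPM) in WT TCDD 2. For gstt1b the others were at 17.8 to 17.9 CPM, so that the gap was about 1 CPM. In WT TCDD 3 wasf3a was low, at 1.77 CPM against at least 2.27. In WT TCDD 4 casp3b was low, at 31.3 CPM against at least 51.4, and hsph1 high, at 2.89 CPM against at most 2.42.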

How the results depend on the processing

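The 389 called genes became 674 with DESeq2's Wald test, 697 without the 4 libraries that stand apart on the first component (WT TCDD 3 and 4, WT control 4, slincRosu3 control 4) and 1056 without WT TCDD 1 and 2, a setting added after seeing the data. Without WT TCDD 3 and 4 alone it was 354. DESeq2 size factors gave 396, no filter 379 and the TCDD libraries alone 363. Leaving out 1 library gave 175 to 315. Without TCDD, 321 became 499 with DESeq2's Wald test, 604 without the 4 libraries and 176 to 328 without 1 library. Shared calls, 161, became 246 with DESeq2's Wald test, 207 without the 4 libraries and 95 to 164 without 1 library. The difference between line effects, with 0 genes by edgeR, had 20 without the 4 libraries and 0 in the other settings run. The causes were not tested. The replicate block gave 505, 370, 0 and 181 genes for these results. It ended the calls of cyp1c1 and hsp70.3, and no other call of the named genes. Same-numbered WT and slincRosu3 libraries correlated at -0.03, 0.28, -0.09 and 0 with TCDD (own number the best match in 1 of 4) and at -0.19, 0.51, 0.41 and 0.68 without it (3 of 4). Not every pair exceeded 0.1, and the labels tie the numbers to no shared clutch or day, so the block was not taken as the design. Over 74 named genes, 503 values in other settings kept direction and call, 82 lost the call and 4 turned sign. With 1 library left out the numbers were 371, 218 and 3. The turned values were those of genes that were not called: sox9b at 0.07 without WT TCDD 3, 0.35 without WT TCDD 3 and 4 and 0.34 without the 4 libraries, ahr2 at -0.01 without WT TCDD 4, -0.06 without WT TCDD 3 and 4 and -0.07 without the 4 libraries, and tiparp at -0.01 without slincRosu3 TCDD 3. With 1 library left out these ran from -0.34 to 0.07 (sox9b), -0.01 to 0.14 (ahr2) and -0.01 to 0.08 (tiparp). Genes under 1 CPM rest on few counts.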
